A study of Mus musculus with 6 samples.

Results

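The genes described are 6 that red blood cells are known for: the adult alpha globins Hba-a1 and Hba-a2, the adult beta globins Hbb-bs and Hbb-bt, Alas2 and Slc4a1. They were taken by gene symbol from a table of 18422 genes, and all 6 were present and deep enough to be tested. Ear skin was taken on postnatal day 21. The table holds 3 control libraries and 3 libraries from mice in which Vegfr2 (gene symbol Kdr), the main signalling receptor for vascular endothelial growth factor, had been deleted in endothelial cells (labelled ecko). The animals of both groups had received tamoxifen, and the controls were littermates of the knockout mice. The series names schedules of tamoxifen from postnatal day 1 or day 10 without saying which applied to these mice, and the Cre driver and strain are not given in the sources used here. Nothing says whether each library came from 1 mouse, so the p-values measure only the spread between these samples.

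Haemoglobin, the oxygen carrier of red cells, is a tetramer of alpha and beta chains with a haem group in each. Alas2 makes the first intermediate of haem in developing red cells, and Slc4a1 (band 3) is the anion exchanger of the red cell membrane. Mature red cells of mammals have neither a nucleus nor ribosomes, and young ones (reticulocytes) still carry globin mRNA into the blood, so a tissue frozen with its blood brings this RNA into its library. Alpha globin has also been described in the endothelium of small arteries, where it limits nitric oxide diffusion.

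The copies within each globin class are close to identical, which bears on every value given for a single copy. The coding sequences of Hba-a1 and Hba-a2 are 429 bases each, are 99.77% identical and differ by the single substitution C381T (Hba-a1 base first, counted from 1 at the A of the start codon). Those of Hbb-bs and Hbb-bt are 444 bases each and differ by the single substitution C417T (Hbb-bs base first). Both substitutions lie at the last position of a codon. The longest identical runs are 380 and 416 bases, so a read from the coding part names its copy only if it covers the differing base or reaches beyond the coding sequence. Coding bases 351 to 410 of the alpha genes and 385 to 444 of the beta genes are shown, with the differing base in capitals, from GENCODE M21 transcripts (GRCm38). They lie at chr11:32284313-32284372 for Hba-a1 and chr11:32297130-32297189 for Hba-a2 (plus strand), and at chr7:103826665-103826724 for Hbb-bs and chr7:103812656-103812715 for Hbb-bt (minus strand).
Hba-a1: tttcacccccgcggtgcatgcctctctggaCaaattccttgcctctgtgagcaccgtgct
Hba-a2: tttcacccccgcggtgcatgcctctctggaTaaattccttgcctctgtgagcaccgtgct
Hbb-bs: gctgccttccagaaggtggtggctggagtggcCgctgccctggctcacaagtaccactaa
Hbb-bt: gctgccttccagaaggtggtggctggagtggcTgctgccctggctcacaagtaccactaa

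The promoter windows of the adult globins and Alas2 were searched for known motifs. No promoter sequence was available for Slc4a1, and a link between these motifs and the levels was not tested. Each line gives the 130 bases before the RefSeq start (GRCm38.p6), 5′ to 3′ on the gene's strand, with matches on either strand to 4 motifs in capitals: CCAAT (known from the factor NF-Y), CACCC (from Klf family factors), TATAA (from the core promoter) and GATAA (from Gata factors); abutting matches run together. The windows are chr11:32283542-32283671 for Hba-a1, chr7:103827929-103828058 for Hbb-bs, chr7:103813924-103814053 for Hbb-bt and chrX:150547287-150547416 for Alas2.
Hba-a1: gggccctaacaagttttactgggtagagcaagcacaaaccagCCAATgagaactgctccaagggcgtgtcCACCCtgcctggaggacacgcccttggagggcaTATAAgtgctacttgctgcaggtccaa
Hbb-bs: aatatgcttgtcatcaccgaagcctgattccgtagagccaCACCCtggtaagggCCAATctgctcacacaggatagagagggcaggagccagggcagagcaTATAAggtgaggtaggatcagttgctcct
Hbb-bt: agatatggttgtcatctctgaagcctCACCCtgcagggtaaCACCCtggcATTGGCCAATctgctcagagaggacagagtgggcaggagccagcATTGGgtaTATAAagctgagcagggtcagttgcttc
Alas2: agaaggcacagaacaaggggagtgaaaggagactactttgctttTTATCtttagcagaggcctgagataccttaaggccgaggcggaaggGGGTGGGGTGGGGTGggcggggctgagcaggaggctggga
All 4 adult globins held the first 3 of these motifs in this window, a combination found in 0.825% of 32851 promoter windows of that length. Singly, the motifs were found in 22.4% (CCAAT), 33.7% (CACCC), 12.7% (TATAA) and 11.4% (GATAA) of those windows. On the opposite strand, Alas2 held 3 matches to CACCC and, at one place, a match to GATAA 86 bases before its start, and no match to the other two. The promoter of Hba-a2 was the same as that of Hba-a1 over 297 of 297 aligned bases after a shift of 3 bases. The alpha windows are copies of each other, and the beta genes are near-identical in coding sequence. The 4 globins are thus not 4 separate instances, and the 0.825% is no test of a shared trait. A match is a description of letters, not of a bound site.

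The alpha globins were lower in the 3 ecko libraries than in the controls by the values, but neither copy passed the test across all genes. Read counts scaled to library size (CPM, on totals scaled by the trimmed mean of M values) of both alpha copies together were 830, 1065 and 565 in controls 1, 2 and 3 and 553, 327 and 381 in ecko 1, 2 and 3. The lowest control thus lay just above the highest ecko library. The ecko mean was 51.3% of the control mean (820 ± 250 against 420 ± 118 CPM, SD, n = 3 each). The log2 fold change of this sum was -0.96 (SE 0.23), with an edgeR quasi-likelihood p of 0.00217 and an adjusted p of 0.0846; in this fit with summed copies 1.78% of genes passed in either direction. In whole-tissue RNA, fewer red cells and less globin RNA per cell cannot be told apart.

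Hba-a2 (Entrez Gene 110257; chromosome 11, 32296492 to 32297310, GRCm38.p6) had 8843, 11311 and 6341 reads in controls 1, 2 and 3 and 5591, 3500 and 3954 reads in ecko 1, 2 and 3. It was the member with the widest gap between groups, and the only one whose CPM was higher in every control than in every ecko library (511, 644 and 360 against 324, 194 and 221). Such a gap in the same direction was seen for 10.8% of the 14866 genes tested, and the opposite gap for 10.2%. Its log2 fold change was -1.04 (SE 0.22), with an adjusted p of 0.0528 by edgeR, just over the threshold of 0.05. The adjusted p lay between 0.0140 and 0.221 over 16 alternative settings, and it was under 0.05 in 5 of them.

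Hba-a1 (Entrez Gene 15122; chromosome 11, 32283672 to 32284486) had 5541, 7393 and 3627 reads in the controls and 3953, 2412 and 2865 reads in the ecko libraries. In CPM the controls were at 320, 421 and 206 and the ecko libraries at 229, 134 and 160. Control 3 lay below ecko 1, so the groups overlapped. On the log2 scale the change was -0.86 (SE 0.25), with an edgeR p of 0.00659 and an adjusted p of 0.144. The libraries stood in the same order as for Hba-a2, apart from control 3 and ecko 1, which changed places. The split of reads between the copies is an estimate of the authors' counting program.

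The beta globins overlapped between the groups. Hbb-bs (Entrez Gene 100503605; chromosome 7, 103826523 to 103827928) had the most reads of the 6 genes: 12328, 19041 and 8032 in controls 1, 2 and 3, and 11298, 6189 and 8290 in ecko 1, 2 and 3. In CPM this was 712, 1084 and 455 against 655, 342 and 464, so control 3 lay below ecko 1 and ecko 3. Its log2 fold change was -0.62 (SE 0.30), with an adjusted p of 0.355 by edgeR, and it was -0.26 without control 2.

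Hbb-bt (Entrez Gene 101488143; chromosome 7, 103812524 to 103813923) had 2626, 3836 and 1596 reads in the controls and 2378, 1360 and 1693 in the ecko libraries. Its CPM values were 152, 218 and 90.5 in the controls and 138, 75.3 and 94.6 in the ecko libraries, in the same order of libraries as Hbb-bs. The log2 fold change was -0.58 (SE 0.29), with an adjusted p of 0.382, and it was -0.24 without control 2. Both beta copies together averaged 904 ± 380 CPM in controls and 589 ± 189 CPM in ecko libraries (SD, n = 3 each). The log2 fold change of the sum was -0.62 (SE 0.29), with an adjusted p of 0.359 by edgeR (-0.26 without control 2).

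Alas2 (Entrez Gene 11656; chromosome X, 150547417 to 150570622) had 481, 778 and 320 reads in controls 1, 2 and 3 and 539, 324 and 350 reads in ecko 1, 2 and 3. In CPM it was at 27.8, 44.3 and 18.1 in the controls and at 31.2, 17.9 and 19.6 in the ecko libraries. Ecko 1 was above controls 1 and 3, and only control 2 stood above the ecko libraries. The log2 fold change was -0.39 (SE 0.30), with an adjusted p of 0.594 by edgeR, and it was -0.00 without control 2.

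Slc4a1 (Entrez Gene 20533; chromosome 11, 102348820 to 102365281) had the fewest reads of the 6 genes, with 27, 41 and 14 reads in the controls and 18, 18 and 26 reads in the ecko libraries. The lowest library of all was control 3, at 0.794 CPM, and the highest was control 2, at 2.33 CPM. The log2 fold change was -0.42 (SE 0.37), with an adjusted p of 0.665 by edgeR, and it was -0.01 without control 2 and -0.93 in the male libraries alone. The values spread widely between libraries of 1 group.

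Across the 6 genes, 0 passed the edgeR test in either direction at an adjusted p under 0.05, against 1.76% of the 14866 genes tested (262 genes; 0.686% higher and 1.08% lower). DESeq2 and limma-voom also gave 0 of 6. At an unadjusted p under 0.05, 2 of the 6 were lower, both of them alpha globins, against 7.95% of all genes. All 6 values were below 0, against 50.5% of all genes, and their median log2 fold change was -0.60 against -0.00 over all genes. The globin copies share reads, so they are not 6 separate measurements.

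**Figure D1:**
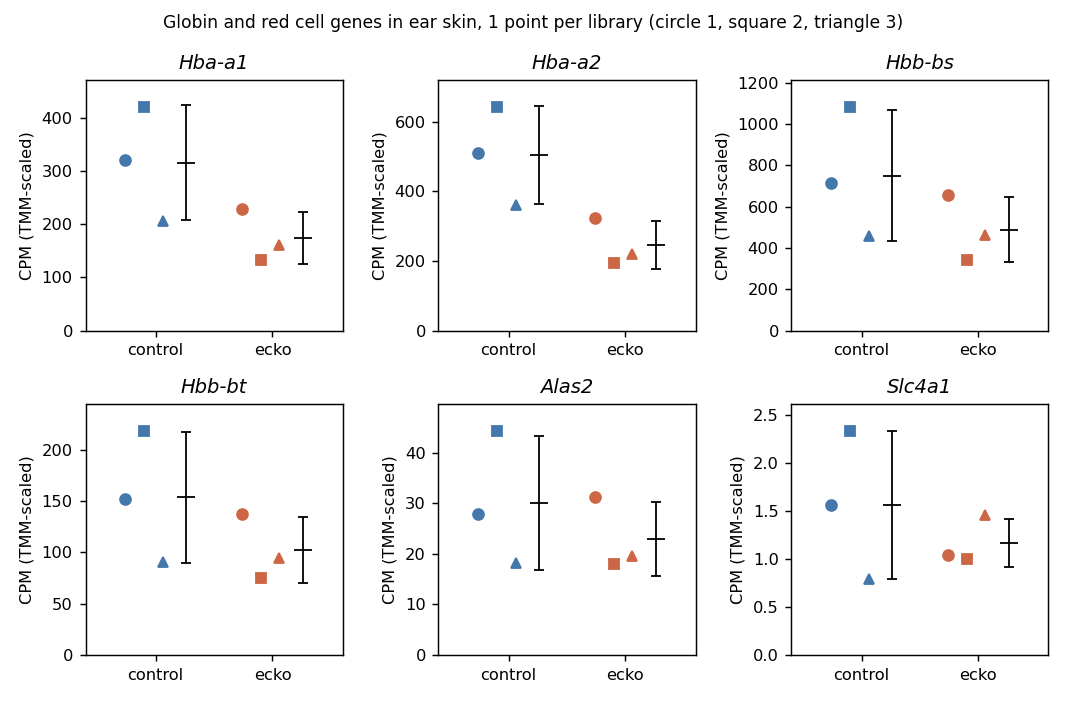
CPM of each gene (vertical axis, starting at 0, with its own scale in each panel) in the 3 control and 3 ecko libraries. Each point is 1 library, and the bar beside each group is the mean ± SD; control 2 is the highest point for all 6 genes, and only Hba-a2 has no overlap between the groups.

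As a measure of blood content, the 4 adult globins together took 29338, 41582 and 19596 reads in controls 1, 2 and 3, and 23220, 13461 and 16802 reads in ecko 1, 2 and 3. This was 0.170%, 0.236% and 0.111% of the reads in the controls and 0.133%, 0.0746% and 0.0940% in the ecko libraries. Even the highest library therefore gave about 1 read in 423 to adult globin, and the lowest about 1 in 1341. The summed CPM was 1724 ± 628 in controls and 1010 ± 306 in ecko libraries (SD, n = 3 each), or 58.6% of the control mean, and ecko 1 (1345 CPM) lay above control 3 (1111 CPM). Libraries of 1 genotype differed by as much as the genotypes did: the highest control was 2.13 times the lowest, and the highest ecko library was 1.81 times the lowest.

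The members were among the most variable genes between control libraries. Their coefficients of variation over the 3 controls were 28.2% for Hba-a2, 34.1% for Hba-a1, 41.7% for Hbb-bt, 42.1% for Hbb-bs, 44.0% for Alas2 and 49.3% for Slc4a1, against a median of 7.85% over 14318 genes with a mean of at least 1 CPM. Between 95.8% (for Hba-a2) and 99.3% (for Slc4a1) of those genes varied less.

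Per kilobase of transcript, the control levels ran in the order Hbb-bs (1195 ± 503 CPM per kb), Hba-a2 (911 ± 257), Hba-a1 (451 ± 154), Hbb-bt (218 ± 90.9), Alas2 (14.8 ± 6.49) and Slc4a1 (0.344 ± 0.169; SD, n = 3). The spreads of Hbb-bs and Hba-a2 overlapped, as did those of Hba-a1 and Hbb-bt, but these SDs are between libraries. Within every library Hbb-bs was above Hba-a2 per kilobase, and Hba-a1 was above Hbb-bt. The ecko levels followed the same order, from 775 ± 251 CPM per kb for Hbb-bs to 0.256 ± 0.0554 for Slc4a1. Each length was that of the longest protein-coding GENCODE M21 transcript (554 bases for Hba-a2, 699 for Hba-a1). The size of the gaps between copies thus depends in part on that choice, while control CPM without lengths ran in the same order. The levels of single copies carry the uncertainty of their shared reads.

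The third library of each group came from a female by its Y-linked reads (24 and 36, against 3712 to 4390 in the other libraries), so the groups hold the same mix of sexes. Among males, the lowest control exceeded the highest ecko library for the alpha sum (830 against 553 CPM) and for the beta sum (863 against 792 CPM). Alas2 was the only member that overlapped among males (lowest control 27.8 CPM, highest ecko library 31.2 CPM). With so few male libraries per group, such a gap was not set against its share over all genes and is a description only. Between the females, with 1 library each and no test, the alpha sum was 565 CPM in the control and 381 in the ecko library, whereas the beta sum was 546 and 558 CPM. The female control was the lowest of the controls for all 6 genes, so sex and other differences between these libraries cannot be told apart.

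Ratios within a library do not depend on how libraries are scaled. Alpha reads per beta read were 0.962, 0.818 and 1.04 in controls 1, 2 and 3, and 0.698, 0.783 and 0.683 in ecko 1, 2 and 3. Every control was above every ecko library, with means of 0.938 ± 0.111 and 0.721 ± 0.0540 (SD, n = 3 each). The gap is narrow: control 2 and ecko 2 had 45.0% and 43.9% of their adult globin reads in the alpha copies, with exact 95% intervals of 44.5% to 45.5% and 43.1% to 44.8% that cover counting error only and that overlap. The order held between the males and between the females. Relative to the beta globin reads of the same library, 0.0538% of 14864 genes (8 genes) were lower in every ecko library than in every control, and 3.07% were higher. The beta sum was itself lower in the ecko libraries by the values (log2 fold change -0.62), and its highest control was 2.39 times its lowest. A ratio to it therefore tends upward and is noisy for most genes, so these shares do not measure how unusual the alpha ratio is. The alpha to beta ratio was examined after these values were seen, so it is a description.

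Those 8 genes, also named after their values were seen, were Hba-a1, Hba-a2, the deleted gene Kdr, Cyp2e1, Ccdc85a, Kcna5, Nos2 and Esm1. Esm1 (endocan, an endothelial secreted proteoglycan) had a log2 fold change of -2.11 and an adjusted p of 0.0350 by edgeR. Nos2, the inducible nitric oxide synthase, had a log2 fold change of -1.89 and an adjusted p of 0.0315. Cyp2e1, a cytochrome P450 enzyme, was at -1.73 (adjusted p 0.00612). The other two were Ccdc85a at -1.77 (adjusted p 0.00968) and the voltage-gated potassium channel gene Kcna5 at -1.59 (adjusted p 0.0201). Hba-a1 was inside the set by a small margin, with 320 reads per 1000 beta reads in ecko 2 against 323 in control 2.

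General endothelial genes were also lower in the ecko libraries. Of 12 general endothelial genes, 9 passed the edgeR test as lower and 0 as higher, against 1.08% and 0.686% of all genes tested. Their median log2 fold change was -0.78. Cdh5, the adhesion molecule of endothelial junctions, was at -0.93 (adjusted p 0.000454), and the orphan receptor gene Tie1 was at -1.07 (adjusted p 0.000454). The summed level of the 12 genes was 433 to 466 CPM in controls and 273 to 282 CPM in ecko libraries. Their part in the alpha globin values was not tested.

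**Figure D2:**
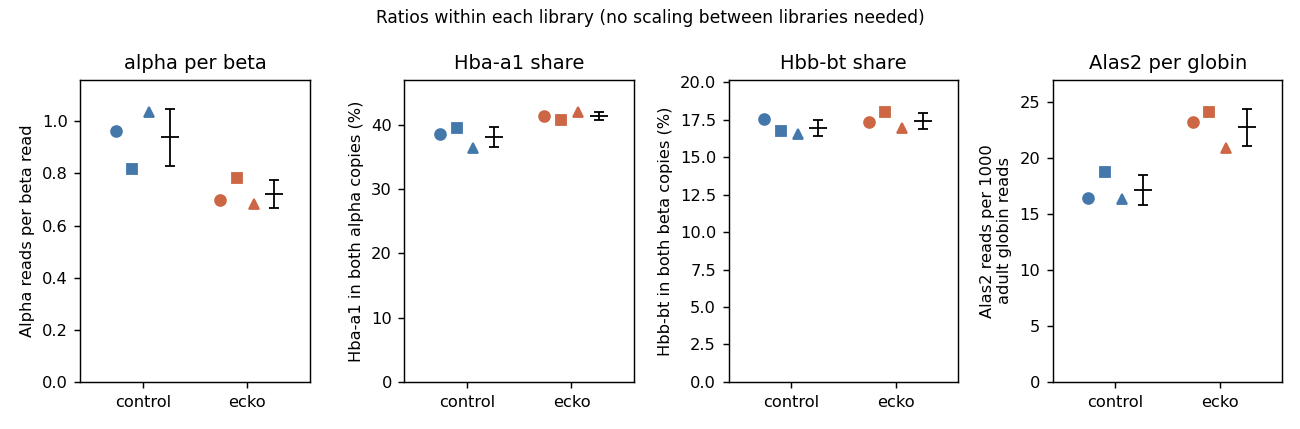
Ratios of reads within each library (vertical axes, starting at 0) for alpha per beta globin read, Hba-a1 as a percentage of alpha reads, Hbb-bt as a percentage of beta reads and Alas2 per 1000 adult globin reads. Points are libraries and bars are mean ± SD; the groups do not overlap for alpha per beta, for the Hba-a1 share or for Alas2 per globin, and they overlap for the Hbb-bt share.

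The share of alpha reads given to Hba-a1 was 38.5%, 39.5% and 36.4% in controls 1, 2 and 3 and 41.4%, 40.8% and 42.0% in ecko 1, 2 and 3. Every ecko library was thus above every control (38.1% ± 1.61 against 41.4% ± 0.601, SD, n = 3 each). The share of beta reads given to Hbb-bt was 17.6%, 16.8% and 16.6% in controls and 17.4%, 18.0% and 17.0% in ecko libraries, and the groups overlapped. The deposited reads of single copies were fractional, while the alpha copies summed to a whole number within 0.02 in 6 of 6 libraries. The beta copies did so in 4 of 6, and in 6 of 6 once Hbb-b1, another beta globin entry with at most 2.26 reads, was added. Reads common to the copies had therefore been divided among them, and the Hba-a1 share rests on that division.

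Alas2 was higher relative to the globins in the ecko libraries. Alas2 reads per 1000 adult globin reads were 16.4, 18.7 and 16.3 in controls 1, 2 and 3 and 23.2, 24.1 and 20.8 in ecko 1, 2 and 3, with no overlap (17.1 ± 1.36 against 22.7 ± 1.68, SD, n = 3 each). A ratio to adult globin higher in every ecko library than in every control was found for 9.89% of 14862 genes, and one lower in every ecko library for 0.0336%. The adult globin sum was itself lower in the ecko libraries on average, so these shares do not measure how unusual the Alas2 ratio is. Relative to beta globin alone, Alas2 was at 32.2, 34.0 and 33.2 reads per 1000 in controls and at 39.4, 42.9 and 35.1 in ecko libraries, a smaller gap with ecko 3 close to the controls. Slc4a1 was at 0.920, 0.986 and 0.714 reads per 1000 adult globin reads in controls and at 0.775, 1.34 and 1.55 in ecko libraries, which overlap.

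The genes whose levels followed the summed adult globins most closely over the 6 libraries were looked for by the root-mean-square difference of centred log2 CPM profiles. The globins themselves lay at 0.055 (Hba-a1), 0.099 (Hbb-bs), 0.119 (Hbb-bt) and 0.165 (Hba-a2), as parts of the sum. Alas2, which is no part of it, lay at 0.222 and took place 6 when ranked among all genes. Slc4a1 lay at 0.386, in place 224, against a median of 0.559. Of 14312 other genes, the closest were Rlbp1 (0.200), LOC115489141 (0.225), Bcat1 (0.226), Olfr78 (0.240), Rasd1 (0.241), Pmp2 (0.251), A2m (0.254) and Notch4 (0.265). Of these 8, 6 were highest in control 2 and 4 were lowest in ecko 2. Only Notch4, a receptor of the endothelium, passed the edgeR test (log2 fold change -0.87, adjusted p 0.0182). With 6 libraries, a close profile among so many genes is a description only.

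**Figure D3:**
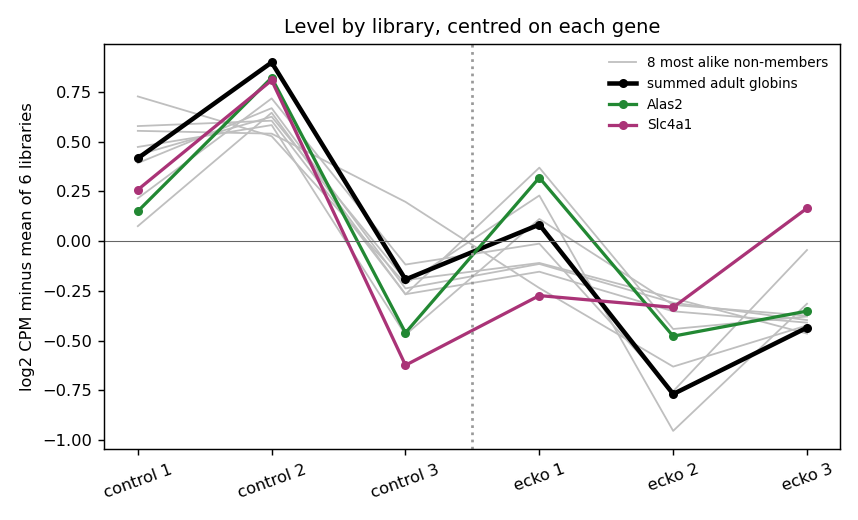
Level in each of the 6 libraries (horizontal axis) as log2 CPM minus the gene's mean over the libraries (vertical axis) for the summed adult globins, Alas2, Slc4a1 and the 8 most similar other genes in grey. The globin sum runs from 0.90 in control 2 to -0.77 in ecko 2; Alas2 lies nearer to it than Slc4a1 does, with root-mean-square differences of 0.222 and 0.386.

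The remaining genes of red cells were mostly at a few reads or were genes that other cells of the skin also use, and in none of those 3 lists did a gene pass the edgeR test. Epb42, a protein of the red cell membrane skeleton, had 3 to 10 reads, Rhag 0 to 2 and Klf1, a transcription factor of red cell genes, 2 to 8. Of 16 red cell membrane and skeleton genes in the table, 9 could be tested, and 0 passed in either direction (median log2 fold change -0.14). Of 14 tested genes of late red cells and reticulocytes, 0 passed (median -0.02). Of 10 tested transcription factor genes with the erythropoietin receptor, 0 passed (median -0.09), and Gata1 had 15 to 31 reads. At an unadjusted p under 0.05 in either direction each of these lists had 2 genes, against 15.4% of all genes tested, and DESeq2 and limma-voom also passed 0 in each.

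The shared enzymes of haem synthesis did not pass the test either. Of 8 haem enzymes that all cells use, 0 passed the edgeR test (median log2 fold change -0.12; 3 at an unadjusted p under 0.05, against 15.4% of all genes; 0 by DESeq2 and limma-voom), and their summed level was 320 to 340 CPM in controls and 308 to 327 CPM in ecko libraries. Alas1, which makes the same intermediate as Alas2 in other tissues, was at 0.13. Of 14 tested genes of haem and iron handling, 1 rose and 0 fell by edgeR (median 0.04), against 0.686% and 1.08% of all genes tested. The gene that rose was Tfrc, the transferrin receptor through which cells take up iron, with 118 ± 17.0 CPM in controls and 185 ± 14.4 in ecko libraries (SD, n = 3 each). Its log2 fold change was 0.65 (SE 0.10), with an adjusted p of 0.0159. Tfrc is not limited to red cells, and dividing cells in general express it.

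Of 3 other globin family genes tested, 1 rose and 0 fell by edgeR, against 0.686% and 1.08% of all genes tested. Mb, the myoglobin gene of muscle, rose by 0.95 on the log2 scale (SE 0.12, adjusted p 0.00553 by edgeR), with a mean of 132 ± 21.1 CPM in controls and 254 ± 30.1 in ecko libraries (SD, n = 3 each). Of 12 skeletal muscle genes, 0 rose and 2 fell by edgeR, against the same shares of all genes. DESeq2 passed 4 as lower and limma-voom 2. At an unadjusted edgeR p under 0.05 in either direction there were 11, against 15.4% of all genes tested. Their median log2 fold change was -0.45. Their summed levels were 7609 to 11059 CPM in controls and 6244 to 7166 CPM in ecko libraries. Cygb (cytoglobin, of fibroblasts) and Ngb (neuroglobin) were at -0.11 and -0.13 and did not pass. The theta globin genes Hbq1a and Hbq1b had at most 4 reads in any library.

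Markers of platelets and neutrophils did not pass the edgeR test. Of 4 tested platelet genes, 0 passed (median 0.04). All 12 listed platelet genes, tested or not, summed to 37.4 to 44.7 CPM in controls and 38.1 to 41.8 CPM in ecko libraries. Of 4 tested neutrophil genes, 0 passed (median 1.32). All 12 listed neutrophil genes, tested or not, summed to 24.8 to 41.1 CPM in controls and 30.9 to 170 CPM in ecko libraries. S100a8 and S100a9 had 654 and 802 reads in ecko 1, 1431 and 1403 in ecko 2 and 151 and 210 in ecko 3. In controls they had 112 to 274 and 126 to 271 reads. Cxcr2 had 73 to 88 reads in controls and 107 to 175 in ecko libraries, and Csf3r 31 to 70 and 59 to 116. Ly6g, Mpo and Elane had at most 2 reads in any library. Whether the S100a8 and S100a9 reads came from neutrophils was not tested. At an unadjusted edgeR p under 0.05 the counts were 0 of the tested platelet and 3 of the tested neutrophil genes, against 15.4% of all genes. DESeq2 passed 1 neutrophil gene, Cxcr2, as higher and no platelet gene, and limma-voom passed 0 in both lists. Most genes of both lists had under 10 reads in every library or were not tested, so blood cells other than red cells were poorly covered.

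**Figure D4:**
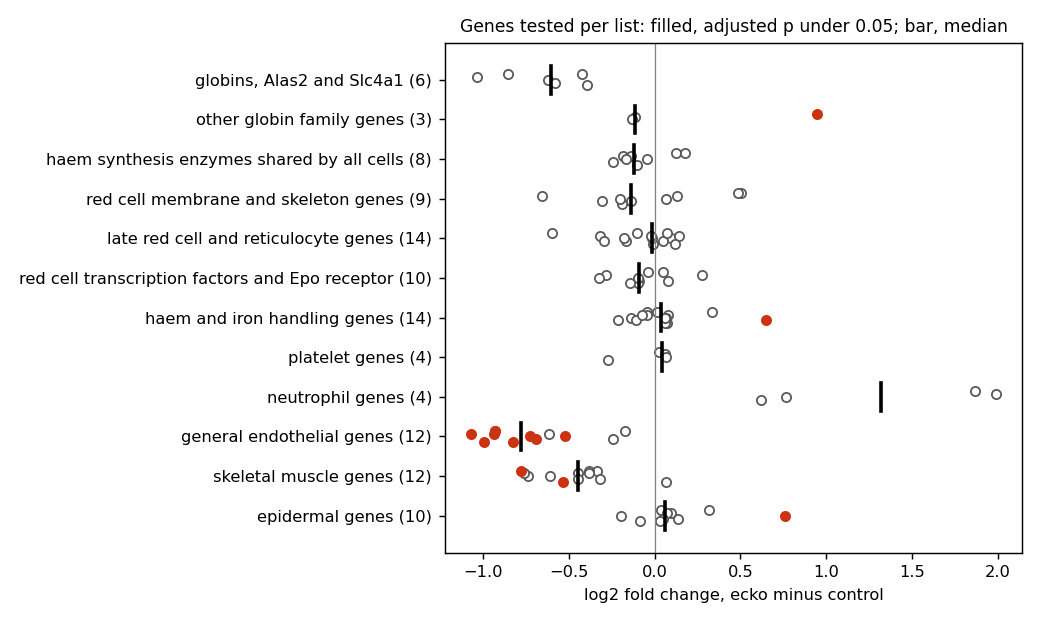
Log2 fold change, ecko minus control (horizontal axis), of each tested gene in the lists named on the left, with the number tested in brackets. Filled points had an adjusted p under 0.05 by edgeR and the bar is the list's median; the 6 globin and red cell genes are all open and below 0, with a median of -0.60.

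**Figure D5:**
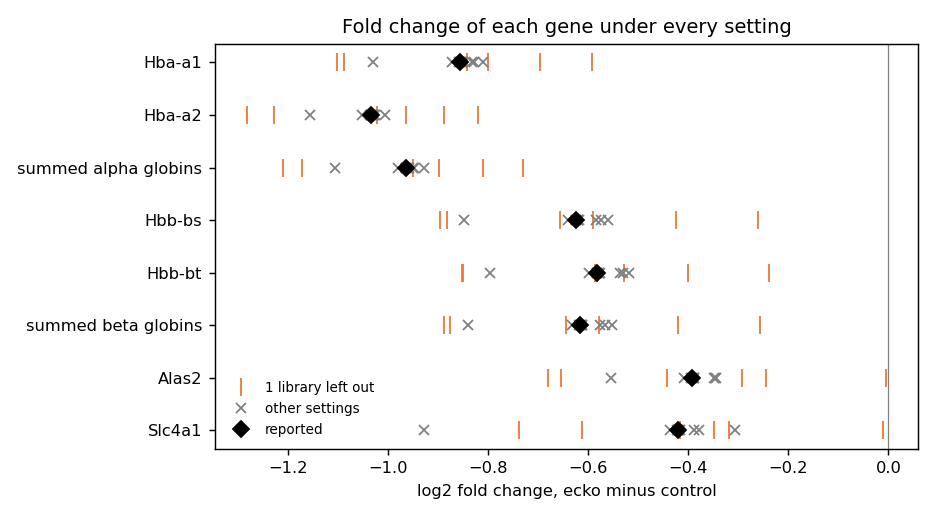
Log2 fold change, ecko minus control (horizontal axis), of each gene and of the copy sums as reported (diamond), with 1 library left out (vertical ticks) and under the other settings (crosses). All values are below 0, and those of Alas2 and Slc4a1 reach -0.00 and -0.01 without control 2.

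The libraries held 17255419 to 18054700 reads assigned to genes, so depth differed little between them. Kdr, the deleted gene, had 475, 511 and 595 reads in controls and 58, 37 and 42 in ecko libraries, 8.59% of the control mean in CPM, lower in every ecko library as labelled. Epidermal genes, the markers of the tissue named in the labels, summed to 28979 to 31276 CPM in controls and 32451 to 34801 CPM in ecko libraries.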

How the data were processed

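RNA from ear skin was enriched for poly(A) RNA and sequenced, per the labels' protocols, in 3 control and 3 ecko libraries. The authors deposited expected counts per gene. RSEM 1.3.1, Bowtie2 2.4.5, HISAT2 2.2.1 and GRCm38.p6 are listed in the submitters' processing notes, which give no order. Whether reads kept their strand is not stated. Of the values, 10.5% were not whole, and counts were rounded before testing. Reads of near-identical globin copies were divided among them by the authors' estimate, so copy sums were also tested.

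Genes were kept by edgeR's filterByExpr at a minimum count of 10 (14866 of 18422), scaled by TMM and tested by edgeR 4.0.16 (R 4.3.3; quasi-likelihood, ecko against control, Benjamini-Hochberg adjustment over all tested genes). Passing means an adjusted p under 0.05. Shares carry exact Clopper-Pearson 95% intervals, which cover counting error only. Libraries held 17255419 to 18054700 reads. Alternatives were DESeq2 1.42.0, limma-voom 3.58.1, other scalings and filters, a sex term, a replicate block, male libraries only and leaving out each library. The fitting scripts were tested on simulated data. There, 62.7%, 94.6% and 99.7% of changes of 0.5, 1 and 2 on the log2 scale were recovered. Of the calls, 7.36% were false, above the nominal 5%. The recovery is over genes of all spreads, and the members varied more than most genes between controls. Replicates were compared and differed by 4.89 to 14.8 times the sampling variance, so none was counted as a duplicate.

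The members and gene lists were chosen with earlier results of these data known. Genes named beyond the members were the 8 with the most similar profile, and some of the genes that passed in a list. Other genes named were chosen after their values were seen. Sequences come from RefSeq promoters (5 of 6 members matched) and GENCODE M21 transcripts, and symbols from RefSeq (18370 identifiers matched).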

Additional observations from a re-analysis of the deposited data

How the results depend on the processing

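None of the 8 fold changes (6 genes and both copy sums) changed sign under the 16 alternatives, and no member passed as higher. Hba-a2 passed the test with upper-quartile factors (log2 fold change -1.05, adjusted p 0.0454), without a low-count filter (-1.03, 0.0342) and with a sex term (-1.01, 0.0401), so the number of members that passed as lower was 1 under each, and 1 at an adjusted p under 0.1, against 0 as reported. Leaving out 1 library at a time gave -1.28 to -0.82 for Hba-a2, -1.10 to -0.59 for Hba-a1 and -1.21 to -0.73 for the alpha sum, with 0 to 2 members passed. Hba-a1 and the alpha sum passed only without control 3, and Hba-a2 passed without control 3 (adjusted p 0.0140) or without ecko 1 (0.0472). The same ranges were -0.90 to -0.26 for Hbb-bs, -0.85 to -0.24 for Hbb-bt, -0.89 to -0.26 for the beta sum, -0.68 to -0.00 for Alas2 and -0.74 to -0.01 for Slc4a1. The weakest value of Hbb-bs, Hbb-bt, the beta sum, Alas2 and Slc4a1 was in each case the one without control 2. In the male libraries alone Slc4a1 was at -0.93 (edgeR adjusted p 0.271).

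Over all genes, 102 were called higher and 160 lower. The counts were 195 and 231 by DESeq2, 83 and 91 in the male libraries alone, and from 22 and 34 (without ecko 2) to 165 and 242 (without control 3) with 1 library left out. Replicate numbers did not pair the samples (same-number correlations of 0.036, -0.031 and 0.039). With a replicate block the values were -0.83 for Hba-a1, -1.03 for Hba-a2 (adjusted p 0.0551), -0.57 for Hbb-bs, -0.53 for Hbb-bt, -0.35 for Alas2, -0.38 for Slc4a1, -0.95 for the alpha sum and -0.57 for the beta sum, and the block changed no call among them; over all genes it gave 63 higher and 129 lower. Slc4a1 had the fewest reads of the 6 genes, with 14 to 41 reads a library.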
